A study of Mus musculus with 4 samples.

Results

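The 10 genes described here encode receptors of the TNF receptor superfamily that lymphocytes use, namely Tnfrsf4, Tnfrsf9, Tnfrsf18, Tnfrsf8, Tnfrsf1b, Cd27, Fas, Tnfrsf25, Tnfrsf13b and Tnfrsf13c. They were picked out by symbol among the 54752 genes of the count tables, and all 10 had enough counts to be tested. The RNA-seq libraries, 2 of WT and 2 of Mek1/2-tKO, were made from cultured mouse CD4+ T cells. Mek1/2-tKO mice carried Cd4-Cre and floxed alleles of both Map2k1 and Map2k2, which encode the kinases MEK1 and MEK2, on a C57BL/6 background. Whether the WT mice carried Cre or floxed alleles is not given for these libraries. Splenic CD4+ T cells of both genotypes were isolated with a kit for naïve CD4+ T cells, which is meant to leave out B cells, NK cells and myeloid cells, and were activated with antibodies to CD3 and CD28, with IL-6 added and TGF-β, IL-4, IL-2 and IFN-γ blocked by antibodies, conditions that favour T follicular helper (Tfh) cells, and viable cells were collected on day 3. Cd4-Cre deletes floxed alleles in every T cell that has passed through the CD4-expressing stage in the thymus. The ages of the mice, and whether the replicates came from separate mice or cultures, are not given in the sources used here, so that p values measure the spread between these libraries, which may be technical.

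Receptors of this superfamily are membrane proteins that bind trimeric ligands of the TNF superfamily. OX40 (Tnfrsf4), 4-1BB (Tnfrsf9), GITR (Tnfrsf18), CD30 (Tnfrsf8), TNFR2 (Tnfrsf1b) and CD27 recruit TRAF adaptors, switch on NF-κB and prolong the survival and division of activated T cells. Fas and DR3 (Tnfrsf25) carry a cytoplasmic death domain, through which Fas triggers apoptosis by way of FADD and caspase-8, whereas DR3 mostly costimulates T cells. TACI (Tnfrsf13b) and BAFF-R (Tnfrsf13c) bind BAFF, and TACI also binds APRIL, and they are best known as survival and differentiation receptors of B cells.

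The libraries held 16330802 to 18931090 counts. Read counts were scaled by edgeR's TMM factors and are given as CPM, the count relative to the scaled library total, for a gene between libraries, and as RPKM, which also divides by exon length, for levels of different genes. The deletion was read from Map2k1, which had 182 and 187 CPM in WT and 98.0 and 105 CPM in Mek1/2-tKO libraries, and from Map2k2, with 155 and 165 CPM in WT and 172 and 182 CPM in Mek1/2-tKO (log2 fold change 0.15, edgeR quasi-likelihood test, adjusted p = 0.126). A count over the whole gene does not single out the floxed exons. Genes are called higher or lower in Mek1/2-tKO where this test gave an adjusted p under 0.05 and they differed 1.5-fold or more. T-cell receptor constant gene Trbc2 was abundant in every library (351 to 397 CPM), whereas Cd4, which defines the labelled cells, had 297 and 289.5 CPM in WT and 18.8 and 25.1 CPM in Mek1/2-tKO. Of 12 T-cell identity genes, 7 were lower and 1, Thy1, was higher in Mek1/2-tKO, and their summed level was 3000 and 3007 CPM in WT and 2611 and 2435 CPM in Mek1/2-tKO. Markers of other cells were higher there, and the sums given here are over each whole list. Higher were 13 of 14 B-lineage markers, all but Fcer2a, which was lower (summed 1426 to 1454 CPM in WT and 7048 to 7098 CPM in Mek1/2-tKO), 9 of 9 NK-cell markers such as Nkg7 and Prf1 (149 to 150 CPM and 863 to 942 CPM), 6 of 6 gamma-delta T-cell genes such as Trdc and Tcrg-C2 (4.77 to 8.11 CPM and 187 to 204 CPM) and the 6 tested of 10 myeloid markers, among them Lyz2 and Flt3 (all 10 summed, 2.85 to 3.23 CPM and 22.4 to 30.4 CPM). The myeloid markers Adgre1 and S100a8 had a count of 0 in both WT libraries. In such bulk libraries fewer cells of a type and less RNA per cell cannot be told apart.

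The 10 receptor genes moved in both directions. OX40 and DR3 fell, 4-1BB, TACI and BAFF-R rose, and the other 5 were not called. With 3 members higher and 2 lower, 5 of 10 were called, where 35.8% of all 14330 tested genes were called, 19.3% as higher and 16.4% as lower. The median log2 fold change of the members was -0.002, beside 0.015 over all tested genes, and single members ranged from -1.58 to 1.46. The CPM of the genotypes did not overlap for any of the 10 members, but this also held for 78.3% of all tested genes.

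**Figure D1:**
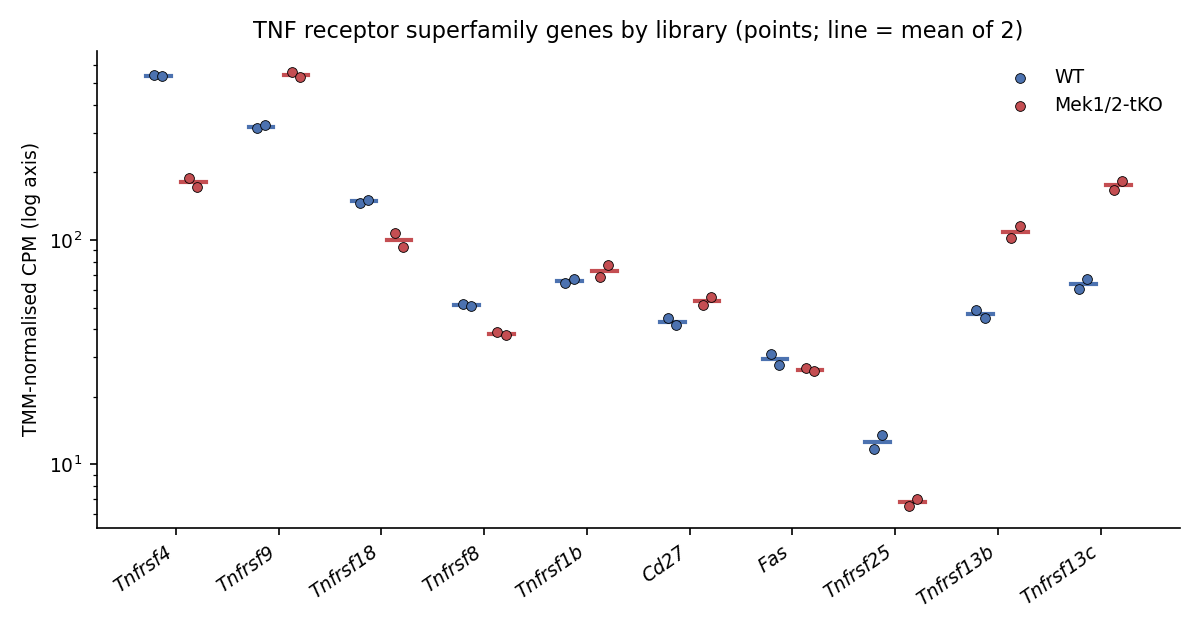
TMM-normalised CPM (log axis) of the 10 receptor genes, with a point for each library and a line at the mean of the 2 libraries of a genotype, WT in blue and Mek1/2-tKO in red. Tnfrsf4 sits at 541 and 537 CPM in WT and at 189 and 172 CPM in Mek1/2-tKO, while Tnfrsf9, Tnfrsf13b and Tnfrsf13c are higher in both Mek1/2-tKO libraries.

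Among the costimulatory receptors, OX40 had the largest change and 4-1BB went the other way. Tnfrsf4 (ENSMUSG00000029075.6, GRCm38 chromosome 4, 156013843 to 156016612), whose product sustains CD4+ T cells after priming, had 541 and 537 CPM in WT and 189 and 172 CPM in Mek1/2-tKO libraries. The WT libraries lay close together, and both Mek1/2-tKO libraries were far below them. This fall amounted to a log2 fold change of -1.58 (standard error, SE, 0.08, 95% interval -1.75 to -1.41, edgeR quasi-likelihood test, adjusted p = 2.02e-09), or 2.99-fold lower. Tnfrsf9 (ENSMUSG00000028965.13, chromosome 4, 150914562 to 150946102), which is induced on activated T and NK cells, had 314 and 325 CPM in WT and 557 and 532 CPM in Mek1/2-tKO libraries. Both Mek1/2-tKO libraries were above both WT libraries, a log2 fold change of 0.77 (SE 0.07, 95% interval 0.61 to 0.93, edgeR quasi-likelihood test, adjusted p = 1.24e-06).

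Relative to the summed reads of the 12 T-cell identity genes, Tnfrsf4 went from 18.0 and 17.9 reads per 100 in WT to 7.25 and 7.06 in Mek1/2-tKO, and Tnfrsf9 from 10.5 and 10.8 to 21.3 and 21.9. The summed level of the 12 genes was 3000 and 3007 CPM in WT and 2611 and 2435 CPM in Mek1/2-tKO. On the scale of this sum Tnfrsf4 stayed lower and Tnfrsf9 higher, but both directions depend on the genes used. Cd4 (log2 fold change -3.73) and Cd28 (-1.99) fell more than Tnfrsf4, while the rest of the list fell less than Tnfrsf4 or rose. Only Thy1 (0.83) rose more than Tnfrsf9. Thy1, the most abundant of the 12, rose from 561 and 574 CPM in WT to 1021 and 998 CPM in Mek1/2-tKO, and a sum without it was not computed. On the same scale Fas had 1.03 and 0.925 reads in WT and 1.03 and 1.07 reads in Mek1/2-tKO, and was not lower in the latter. As 7 of the 12 T-cell identity genes were themselves lower, the scale is a description. Markers of NK cells, which can express 4-1BB, were higher in the same Mek1/2-tKO libraries, and the part of NK cells in the level of Tnfrsf9 was not tested. Most of the summed NK-marker level came from Nkg7 and Prf1. Klrb1c, Ncr1 and Klre1 were the least abundant of these markers, at 0.6743 to 1.026 CPM in WT and 5.555 to 12.79 CPM in Mek1/2-tKO. Their log2 fold changes were 2.716, 3.725 and 3.707, beside a median of 2.718 over the 9 NK-cell markers.

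The estimates for GITR, CD30, TNFR2 and CD27 stayed within 1.5-fold, though the intervals of GITR and CD30 reached beyond it. Tnfrsf18 (chromosome 4, 156026164 to 156028895), which encodes GITR, a receptor of regulatory and activated T cells, had 146 and 151 CPM in WT and 107 and 93.3 CPM in Mek1/2-tKO. Its log2 fold change of -0.57 (SE 0.09, edgeR quasi-likelihood test, adjusted p = 1.35e-04) passed the p threshold and lay just inside the fold threshold of 0.585. It was called lower when library size alone scaled the counts (-0.65), without WT replicate 1 (-0.59) and without Mek1/2-tKO replicate 1 (-0.67). Of its exon bases 27.2% are shared with Gm16008 on the other strand, a gene with 41 and 19 counts in WT and 4 and 13 counts in Mek1/2-tKO, and since the strand setting of the counting is not given, the value of Tnfrsf18 is uncertain.

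Tnfrsf8 (chromosome 4, 145267137 to 145315164), which encodes the activation antigen CD30, had 51.9 and 50.6 CPM in WT and 38.8 and 37.7 CPM in Mek1/2-tKO, a log2 fold change of -0.42 (95% interval -0.65 to -0.20). Cd27 (chromosome 6, 125232622 to 125237010), a receptor already present on naïve T cells, had 44.9 and 41.8 CPM in WT and 51.2 and 56.0 CPM in Mek1/2-tKO, a log2 fold change of 0.31 (95% interval 0.08 to 0.54). The adjusted p of the edgeR quasi-likelihood test was 0.00381 for Tnfrsf8 and 0.0261 for Cd27, but neither reached the fold threshold. For Cd27 the adjusted p of this test was 0.116 with library size scaling, 0.0774 without WT replicate 1, 0.223 without WT replicate 2 and 0.0883 without Mek1/2-tKO replicate 2. Tnfrsf1b (chromosome 4, 145213463 to 145246870), the receptor for TNF that lacks a death domain, had 64.5 and 66.8 CPM in WT and 68.1 and 77.2 CPM in Mek1/2-tKO. Its log2 fold change of 0.15 (95% interval -0.07 to 0.36, edgeR quasi-likelihood test, adjusted p = 0.229) passed neither threshold. It was 0.06 with library size scaling and 0.05 without Mek1/2-tKO replicate 2. Without Mek1/2-tKO replicate 1 it was 0.23 (edgeR quasi-likelihood test, adjusted p = 0.0374), again under the fold threshold.

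OX40, GITR, CD30 and TNFR2 are also known from regulatory T cells. Of 6 regulatory T-cell genes, 3 were lower and 1 was higher in Mek1/2-tKO, and their summed level, most of it from Il2ra and Ctla4, was 844 and 831 CPM in WT and 388 CPM in both Mek1/2-tKO libraries. Foxp3, which defines these cells, had 4.16 and 4.36 CPM in WT and 1.29 and 3.36 CPM in Mek1/2-tKO, and was not called. The part of regulatory T cells in the levels of these receptors was not tested.

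Of the receptors with a death domain, DR3 fell and Fas was not called. Tnfrsf25 (ENSMUSG00000024793.14, chromosome 4, 152115934 to 152120119) was the member with the lowest RPKM, and it had 11.8 and 13.5 CPM in WT and 6.52 and 7.03 CPM in Mek1/2-tKO. Both Mek1/2-tKO libraries were below both WT libraries, and the log2 fold change was -0.90 with a wide interval of -1.32 to -0.47 (SE 0.20, edgeR quasi-likelihood test, adjusted p = 0.00167). Fas (ENSMUSG00000024778.12, chromosome 19, 34290659 to 34327770) had 30.9 and 27.8 CPM in WT and 26.8 and 26.1 CPM in Mek1/2-tKO. The groups were separated by less than the distance between the WT libraries, and the log2 fold change of -0.15 had a 95% interval of -0.42 to 0.12 (edgeR quasi-likelihood test, adjusted p = 0.332), which leaves out a change of 1.5-fold in either direction. It was -0.08 without WT replicate 1, -0.23 without WT replicate 2 and -0.24 with library size scaling.

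BAFF-R and TACI rose. Tnfrsf13c (ENSMUSG00000068105.11, chromosome 15, 82221743 to 82224369), the BAFF receptor on which mature B cells depend, had 60.2 and 66.8 CPM in WT and 167 and 183 CPM in Mek1/2-tKO, a log2 fold change of 1.46 (SE 0.09, 95% interval 1.27 to 1.66, edgeR quasi-likelihood test, adjusted p = 2.11e-08). Tnfrsf13b (ENSMUSG00000010142.12, chromosome 11, 61126755 to 61149372), which encodes TACI, had 48.9 and 45.0 CPM in WT and 102 and 115 CPM in Mek1/2-tKO, a log2 fold change of 1.21 (SE 0.10, 95% interval 0.99 to 1.43, edgeR quasi-likelihood test, adjusted p = 3.50e-07). All 4 values of the Mek1/2-tKO libraries were above the WT values of the same gene.

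Both genes rose in the libraries in which 13 of the 14 B-lineage markers rose. The 14 markers had a median log2 fold change of 2.44, and the most abundant, Ighm and Cd79b, had 2.17 and 3.73. Per 100 reads of these markers, Tnfrsf13c had 4.14 and 4.68 reads in WT and 2.36 and 2.59 reads in Mek1/2-tKO, and Tnfrsf13b had 3.36 and 3.15 reads in WT and 1.44 and 1.63 reads in Mek1/2-tKO. On this scale both genes were lower in the Mek1/2-tKO libraries, where most of the marker sum came from Ighm and Cd79b. The direction depends on the markers used. Pax5 (log2 fold change 1.02) rose less than both receptors and Fcer2a (-0.585) fell. Ebf1 (1.405) lay between the receptors, and the other markers rose more than both. The isolation kit is meant to remove B cells, and the part of B-lineage cells in the level of Tnfrsf13c and Tnfrsf13b was not tested.

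**Figure D2:**
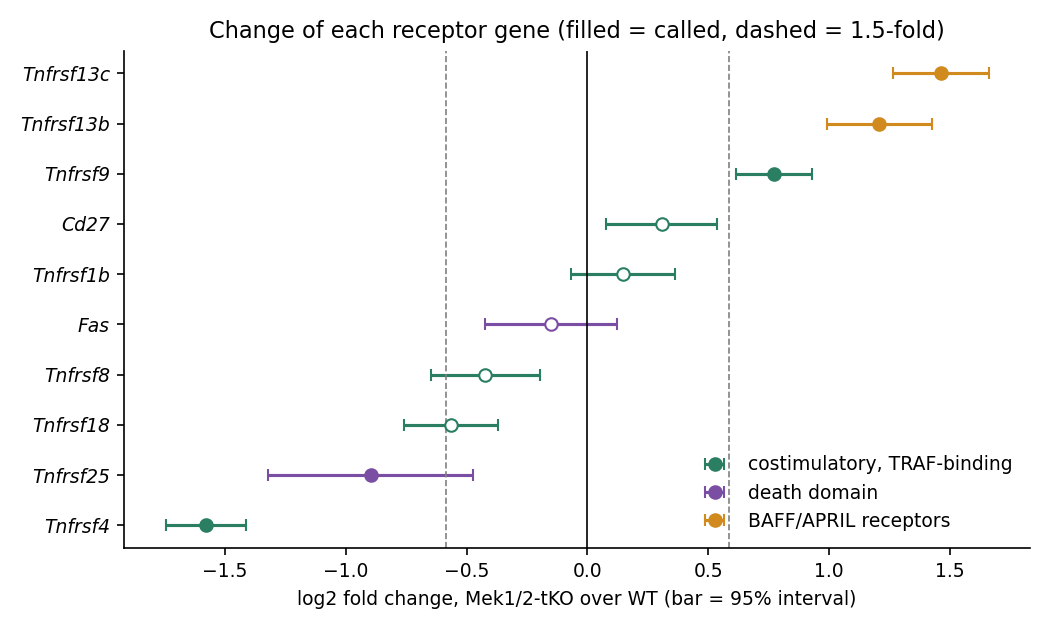
Log2 fold change of Mek1/2-tKO over WT for each receptor gene from edgeR's quasi-likelihood fit, with 95% intervals, coloured by role; filled points passed both thresholds and dashed lines mark 1.5-fold. Tnfrsf4 at -1.58 and Tnfrsf13c at 1.46 are at the ends. The intervals of Tnfrsf25, Tnfrsf18 and Tnfrsf8 span the dashed line on the negative side.

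Per exon length, the order of the receptors changed at the top. In WT, Tnfrsf4 led with 395 RPKM, followed by Tnfrsf9 with 117 and Tnfrsf18 with 97.4 RPKM, and it made up 53.8 to 54.5% of the summed RPKM of the 10 genes. In Mek1/2-tKO, Tnfrsf9 led with 200.1 RPKM, followed by Tnfrsf4 with 132 and Tnfrsf13c with 85.4 RPKM, and the share of Tnfrsf4 was 21.5 to 23.1% while that of Tnfrsf9 was 33.4 to 34.1%. The ratio of Tnfrsf9 to Tnfrsf4 in RPKM was 0.291 to 0.303 in WT and 1.48 to 1.55 in Mek1/2-tKO, with no overlap between the genotypes.

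At the lower end, the mean levels of Cd27, Tnfrsf1b, Fas, Tnfrsf8 and Tnfrsf25 had the same order in both genotypes, from 18.6 to 5.55 RPKM in WT and from 23.0 to 2.98 RPKM in Mek1/2-tKO. Tnfrsf13b stood between Tnfrsf1b and Fas in WT, with 16.5 RPKM, where the ranges of Tnfrsf1b, Tnfrsf13b and Fas all overlapped and their order cannot be told, and above Cd27 in Mek1/2-tKO, with 38.2 RPKM. Apart from these overlaps, the ranges of neighbours in the order were separate in each genotype.

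**Figure D3:**
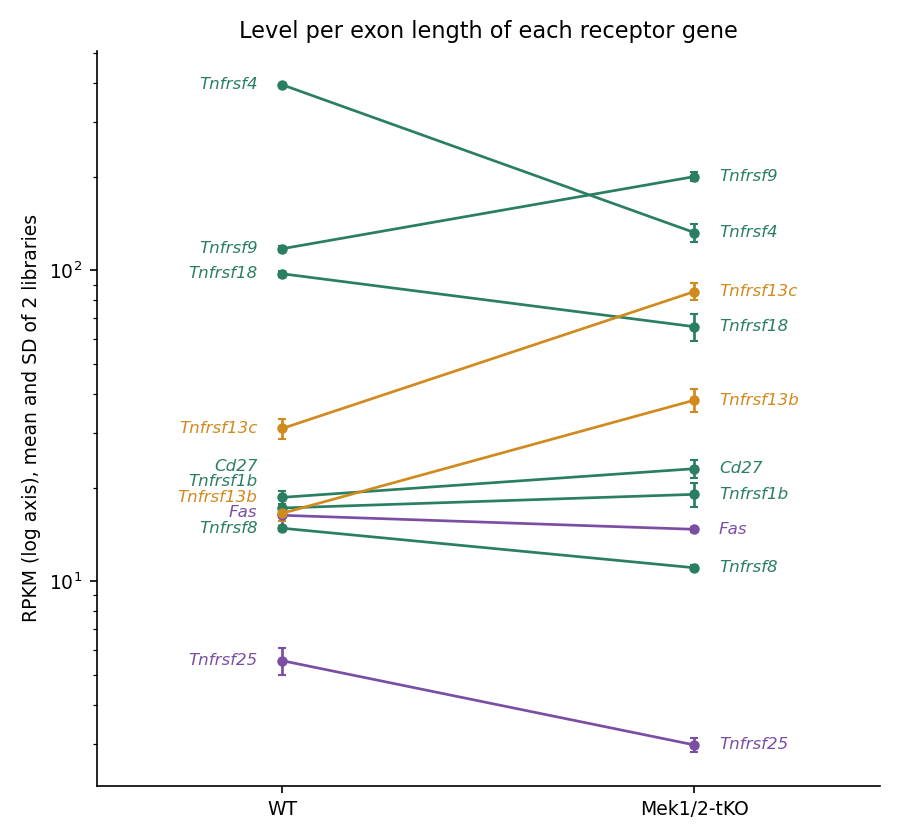
RPKM (log axis) of the 10 receptor genes in WT and Mek1/2-tKO, as the mean and SD of 2 libraries, with lines joining the same gene and colours as in the plot of log2 fold changes. The lines of Tnfrsf4 and Tnfrsf9 cross, the line of Tnfrsf13c passes that of Tnfrsf18, and the line of Tnfrsf13b passes those of Tnfrsf1b and Cd27.

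Of the 10 genes, 6 lie on chromosome 4, and the share of all genes on this chromosome was not computed. Tnfrsf4 and Tnfrsf18 are neighbours there, on the same strand and 9.55 kb apart, and Tnfrsf1b and Tnfrsf8 are 20.3 kb apart. The other gaps between successive members there are 1169.83 to 5599.4 kb. Per 100 reads of Tnfrsf4, Tnfrsf18 had 27.0 and 28.1 reads in WT and 56.8 and 54.3 reads in Mek1/2-tKO. Per 100 reads of Tnfrsf1b, Tnfrsf8 had 80.4 and 75.7 reads in WT and 56.9 and 48.9 reads in Mek1/2-tKO. These ratios restate the changes of the single genes given above. No other gene pairs were compared, so the ratios do not show a trait of neighbouring genes.

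Start sites of all 10 members were found in RefSeq (GRCm38.p6), in 12 windows that each hold 250 bases before and 50 bases after a start. These were searched on both strands for TGANTCA, the core of sites bound by AP-1, whose Fos subunits are induced through ERK, and for a form of the NF-κB site, GGG and TTTCC with a pair of any bases between them. Matches of the 2 motifs did not overlap in these windows. TGANTCA was in 3 of the 12 windows, for Tnfrsf8, Fas and a start of Tnfrsf9, beside 7.81% of 32817 windows of all genes. The NF-κB letters were in 2 of the 12 windows, for Tnfrsf25 and the same start of Tnfrsf9, beside 1.63% of all windows. Not every RefSeq start is the first base of the deposited gene. For Tnfrsf4 it is at position -148 counted from that base, so upstream of the gene. For Tnfrsf18 it is 158 bases inside the gene, and 158 of the 250 bases before it are deposited exon. Both RefSeq starts of Tnfrsf9 are inside the deposited gene, 5593 and 13437 bases from its first base. At the second start of Tnfrsf9 the letters read GGGGATTTCC from position -43 and TGAGTCA from position -15, counted from the start. Of the 250 bases before this start, 81 are exon in the deposited annotation, and whether these hold the matches was not recorded. The 250 bases before the start are printed here for Tnfrsf4 and Tnfrsf9, the members that led the order of levels and moved in opposite directions (for Tnfrsf9 the first of its starts), and for Tnfrsf8, Tnfrsf25 and Fas, which hold a match, with the matches in capitals and in the direction of transcription.
Tnfrsf4, chr4:156013445-156013694, plus strand: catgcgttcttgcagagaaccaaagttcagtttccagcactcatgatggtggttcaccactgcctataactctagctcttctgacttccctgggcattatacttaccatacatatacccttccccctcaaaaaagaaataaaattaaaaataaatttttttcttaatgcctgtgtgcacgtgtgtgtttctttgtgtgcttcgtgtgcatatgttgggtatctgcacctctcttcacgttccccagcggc
Tnfrsf9, chr4:150919905-150920154, plus strand: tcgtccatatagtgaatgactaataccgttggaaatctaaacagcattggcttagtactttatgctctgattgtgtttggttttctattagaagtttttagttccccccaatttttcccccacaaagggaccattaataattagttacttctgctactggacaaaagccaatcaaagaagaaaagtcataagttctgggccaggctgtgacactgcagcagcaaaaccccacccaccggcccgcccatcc
Tnfrsf8, chr4:145315165-145315414, minus strand: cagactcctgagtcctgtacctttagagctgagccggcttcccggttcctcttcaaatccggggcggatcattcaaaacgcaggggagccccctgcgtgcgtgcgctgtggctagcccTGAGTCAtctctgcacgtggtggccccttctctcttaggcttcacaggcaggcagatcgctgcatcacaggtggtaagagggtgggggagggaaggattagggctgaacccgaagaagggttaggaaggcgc
Tnfrsf25, chr4:152115684-152115933, plus strand: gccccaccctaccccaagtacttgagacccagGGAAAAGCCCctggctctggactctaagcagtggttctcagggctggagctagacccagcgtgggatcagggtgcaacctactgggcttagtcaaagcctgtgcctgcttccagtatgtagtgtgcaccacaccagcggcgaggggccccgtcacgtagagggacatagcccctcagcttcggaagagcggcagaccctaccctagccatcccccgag
Fas, chr19:34290409-34290658, plus strand: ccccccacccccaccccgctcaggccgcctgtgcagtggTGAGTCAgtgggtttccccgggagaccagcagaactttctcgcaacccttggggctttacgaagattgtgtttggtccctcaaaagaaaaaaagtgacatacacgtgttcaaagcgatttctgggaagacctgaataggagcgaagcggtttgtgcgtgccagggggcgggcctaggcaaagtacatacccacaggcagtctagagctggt
In these sequences TGAGTCA begins at position -132 of Tnfrsf8 and at position -211 of Fas, neither of which was called. GGAAAAGCCC, which matches the NF-κB letters on the other strand, begins at position -218 of Tnfrsf25, which fell. Neither motif was found in the windows of Tnfrsf4, Tnfrsf18, Tnfrsf1b, Cd27, Tnfrsf13b and Tnfrsf13c. A match of letters is a description of the window and does not show binding.

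The ligands of these receptors were read from the same libraries. OX40 ligand (Tnfsf4) rose where its receptor fell, from 2.62 and 3.11 CPM in WT to 15.3 and 11.7 CPM in Mek1/2-tKO, a log2 fold change of 2.23. Cd70, the ligand of CD27, rose from 0.719 and 0.934 CPM to 13.4 and 11.1 CPM, a log2 fold change of 3.88. Tnf and Lta, both ligands of TNFR2, had log2 fold changes of 0.73 and 1.85 and were called higher, with Lta at 182 and 177 CPM in WT and 687 and 605 CPM in Mek1/2-tKO. Cd70 and OX40 ligand are also made by activated B cells and other antigen-presenting cells, whose markers were higher in these libraries, and the part of these cells was not tested.

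The other ligands of the members showed less. The log2 fold changes of Fasl (0.31), the CD30 ligand Tnfsf8 (0.29) and the 4-1BB ligand Tnfsf9 (0.04) were not called, and Tnfsf9 had only 2.57 to 4.39 CPM over the 4 libraries, with overlapping genotypes. The GITR ligand Tnfsf18, the DR3 ligand Tnfsf15, and Tnfsf13b and Tnfsf13, which encode BAFF and APRIL, had too few counts to be tested, with at most 10 counts in a library and a count of 0 in all 4 libraries for Tnfsf13. Tnfsf13 shares 60.05% of its exon bases with other genes on its strand, among them Tnfsfm13, and Tnfsf12, also untested, shares 48.25%, so that reads there may not have been assigned and these low counts are uncertain. Where no bases are shared, counting error would let a gene with 3 counts, or 0.1585 to 0.1837 CPM, appear at 0. Over the whole list of 17 ligands, 12 were tested, and 5 were higher and 1 lower, 50% beside 35.8% of all tested genes, with a median log2 fold change of 0.43. The fifth higher gene was Tnfsf10 (TRAIL), from 11.9 and 12.1 CPM to 29.4 and 32.5 CPM, and the lower one was Cd40lg, from 28.3 and 24.5 CPM to 2.07 and 1.39 CPM.

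Of 18 other receptors of the superfamily, 14 were tested, 6 were called higher in Mek1/2-tKO and the remaining 8 were not called, so that 42.9% were called beside 35.8% of all tested genes. Among the latter, Tnfrsf1a, the TNF receptor with a death domain, had 17.6 and 14 CPM in WT and 9.82 and 12.2 CPM in Mek1/2-tKO, and it was called lower with library size scaling, without WT replicate 2 and without Mek1/2-tKO replicate 2. The most abundant of the higher ones was Cd40, the B-cell and myeloid receptor of CD40 ligand, with 50.7 and 46.5 CPM in WT and 95.9 and 83.5 CPM in Mek1/2-tKO. Tnfrsf26 rose from 2.93 and 3.99 CPM to 15.7 and 19.01 CPM. The other higher ones rested on few counts, with 1 and 3 counts in WT and 22 and 23 in Mek1/2-tKO for Tnfrsf23, 2 and 7 against 21 and 55 for Tnfrsf11a (RANK), 10 and 6 against 55 and 28 for Tnfrsf11b (osteoprotegerin), and 12 and 8 against 18 and 45 for Ltbr. Ltbr, Cd40 and Tnfrsf1a were named after their values were seen, to complete the list. Ltbr was not called with a replicate block, Tnfrsf11a and Ltbr were not called without Mek1/2-tKO replicate 2, Tnfrsf11b was not called without Mek1/2-tKO replicate 1, and Ltbr was not called without WT replicate 2.

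Downstream of the receptors, Traf5 rose and Traf6, Cflar, Tnfaip3 and Nfkb1 fell. Of 16 adaptors and enzymes at the receptor, 1 was higher and 3 were lower, 25% beside 35.8% of all tested genes. Traf5, an adaptor of OX40 and CD27, rose from 19.96 and 17.7 CPM to 56.1 and 67.0 CPM, a log2 fold change of 1.71 (edgeR quasi-likelihood test, adjusted p = 1.22e-07). Traf6 (-0.84), Cflar (-0.66), which encodes the caspase-8 inhibitor c-FLIP, and Tnfaip3 (-0.63), which encodes the NF-κB inhibitor A20, fell on the log2 scale. Without Mek1/2-tKO replicate 1, Cflar (-0.58) and Tnfaip3 (-0.51) were not called, and Tnfaip3 was also not called without WT replicate 2 (-0.58). The log2 fold changes of Traf1 (0.32), Traf2 (0.21), Fadd (-0.01) and Casp8 (0.23) were not called.

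Of 12 genes of the NF-κB kinases, subunits and inhibitors, 1 was called, 8.33% beside 35.8% of all tested genes. Nfkb1, which encodes the p105 precursor of p50, fell from 711 and 720 CPM to 340.1 and 391.5 CPM, a log2 fold change of -0.97 (SE 0.08, edgeR quasi-likelihood test, adjusted p = 4.20e-07). The log2 fold changes of the other 11 lay between -0.48, for Nfkb2, and 0.52, for Nfkbie. The tested genes numbered 14 for other receptors, 12 for ligands, 16 for adaptors and 12 for NF-κB. Over these lists together, 12 genes were higher and 5 lower. Of all 14330 tested genes, 19.3% were higher and 16.4% lower.

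**Figure D4:**
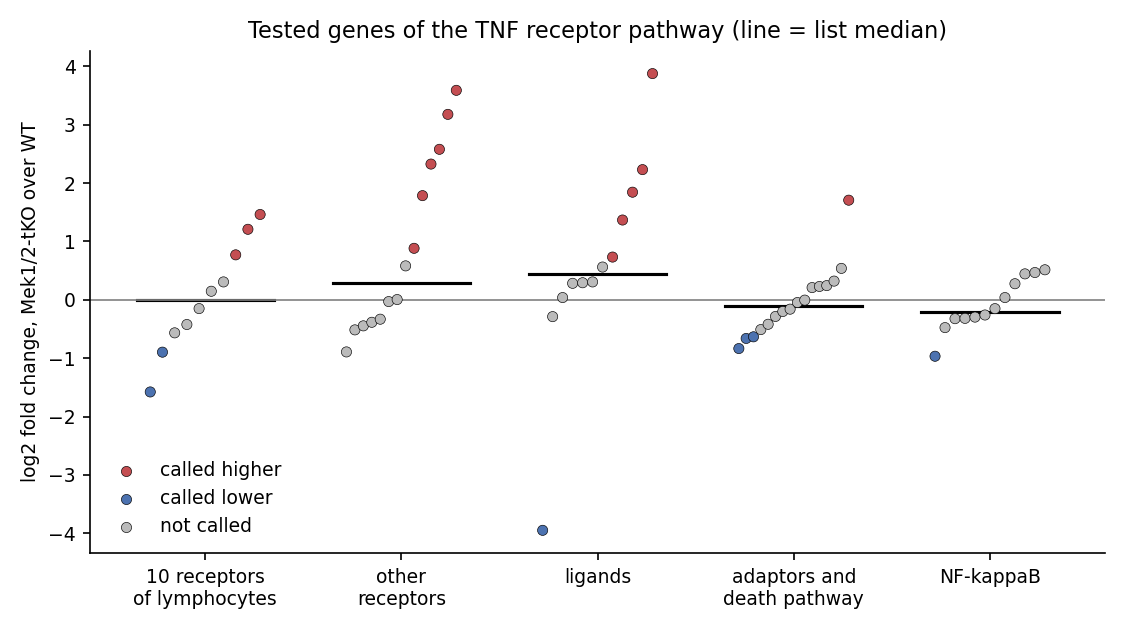
Log2 fold change of Mek1/2-tKO over WT for the tested genes of the 10 receptors and of the lists of other receptors, ligands, adaptors and NF-κB genes, with a point for each gene, red for called higher, blue for called lower and grey for not called, and a line at the median of each list. The medians lie at -0.002, 0.29, 0.43, -0.10 and -0.21, and most NF-κB genes are grey.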

How the data were processed

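RNA was sequenced in 2 WT and 2 Mek1/2-tKO libraries, in read pairs of 150 nucleotides. The authors trimmed the reads with Trimmomatic 0.36, mapped them to GRCm38 with a program that the methods write as STRA, and deposited raw counts of uniquely mapped reads per gene, made with featureCounts (Subread 1.5.1). Annotation release and strand setting are not given in the sources used here. Symbols were matched to 54723 of 54752 identifiers.

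A robust quasi-likelihood model was fitted with edgeR 4.0.16 (R 4.3.3) after filterByExpr and TMM scaling, and p values were adjusted by Benjamini-Hochberg over all 14330 tested genes. Standard errors were taken as the log2 fold change divided by the square root of F. The common dispersion was 0.00842. The smallest two-sided p of an exact permutation test at this size is 0.333. On simulated counts (14061 genes, 200 changed), edgeR recovered 100% of the changes of 1 and of 2 on the log2 scale. It also called 6 unchanged genes. The simulation gave every gene the common dispersion and changed only genes above a minimum mean CPM, equally in both directions. Low counts, gene-specific spread and changes as widespread as in these libraries were thus not tested. Replicates differed beyond sampling noise (chi-square per gene 4.19 in WT and 10.9 in Mek1/2-tKO).

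The members and gene lists were chosen with earlier results of these data known. The members, their ligands and the targeted genes are named. So are up to 4 called genes per list and direction and the 2 most abundant markers of each list. Cd4, Foxp3, Adgre1, S100a8, Cd40, Ltbr, Tnfrsf1a and some uncalled adaptors and NF-κB genes were added after their values were seen. The same holds for Pax5, Ebf1, Fcer2a, Klrb1c, Ncr1, Klre1, Cd28, Lrrc32, Nt5e and Ikzf2. The fit was repeated with DESeq2 1.42.0, with a likelihood-ratio test, and with other scalings, filters and thresholds, a replicate block and leaving out each library. Protein sequences were not used here. Summaries and plots were made in Python 3.11.15 (pandas 2.3.3, matplotlib 3.10.9).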

Additional observations from a re-analysis of the deposited data

How the results depend on the processing

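All 10 receptor genes kept their direction in each of the 11 refits. Over these and the 2 stricter thresholds, the members numbered 3 higher and 2 lower, with these exceptions. Tnfrsf18 joined the lower ones with library size scaling, without WT replicate 1 and without Mek1/2-tKO replicate 1. At a fold change of at least 2, Tnfrsf9 and Tnfrsf25 were not called, which left 2 members higher and 1 lower, the pathway lists had 1 gene lower, and 1725 of all genes were higher and 1040 lower. Leaving out single libraries, 2 to 3 members were lower, 11 to 12 genes of the pathway lists were higher and 3 to 8 lower, and 2338 to 2791 of all genes were higher and 2119 to 2627 lower. The cause of these shifts was not tested.

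Libraries that share a replicate number did not deviate together across genes (correlation -0.0262). Whether they share a mouse cohort, culture or preparation is not given, and this single value cannot decide it. Under the replicate block the genes called came to 2652 higher and 2300 lower, the members stayed at 3 and 2, and the pathway lists had 11 higher and 5 lower. Library size scaling gave 2388 genes higher and 2848 lower, and DESeq2 2556 and 2186. Depth limits the values of receptors and ligands with few counts.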
